A study of Mus musculus with 6 samples.

Results

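The APOBEC and ADAR deaminase genes Apobec1, Apobec2, Apobec3, Adar and Adarb1 were examined in B cells of mouse Peyer's patches, lymphoid tissue of the gut wall, from the GC and the naive population. These 5 genes were taken by symbol from the 39179 Ensembl gene identifiers that have an expression value, and each symbol matched 1 identifier. All mice were WT C57BL/6 females aged 12 wk, and the labels give no treatment. GC B cells were sorted as Fas+GL7+, and naive B cells, which the methods of the study call resting, as Fas-GL7-. Each population was measured by RNA-Seq in 3 replicates that each combined 5 mice, so that differences between single mice were not seen. Values are given in TPM, the share of a transcript in all transcripts of a pool, a scale that accounts for transcript length and therefore allows levels of different genes to be compared. Each value sums all transcripts of a gene, so that isoforms were not separated, and it describes RNA, not protein or deaminase activity.

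Deaminases of these families remove an amino group from a base in RNA or DNA. APOBEC enzymes turn cytosine into uracil: APOBEC1 edits RNA, and is known from the small intestine, where it edits the apolipoprotein B message, and APOBEC3 acts on the DNA of retroviruses during reverse transcription. AID, the enzyme that mutates immunoglobulin genes in GC B cells, belongs to the same family. APOBEC2 is known from skeletal and heart muscle. ADAR enzymes turn adenosine into inosine in double-stranded RNA: ADAR1, the product of Adar, marks RNA of the cell itself so that the sensor MDA5 does not respond to it, and ADAR2, the product of Adarb1, is known from neurons, where it edits glutamate receptor messages.

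The pools matched their labels. The 7 GC markers were all higher in GC B cells, with a summed level of 1542 to 1596 TPM against 52.7 to 58.8 TPM in naive pools, and the 7 markers of resting B cells were all lower (114 to 126 TPM against 1841 to 1975 TPM). Depth, here the number of reads behind the values of a pool as read off from the spacing of low values, lay between about 9800000 and 16100000. Of 12785 genes tested with limma, 65.6% differed between the populations at an adjusted p under 0.05, with 35.5% higher and 30.1% lower in GC B cells, and in 70.7% of them the ranges of the populations were separate. Against this background, 4 of the 5 deaminase genes were tested. Apobec1 and Apobec3 were higher and Adar was lower in GC B cells. Apobec2 was also called lower, but it entered the test mainly through its naive pools, where it is higher, and its call was lost in 9 of 15 alternatives. These calls are not set apart from the background by a test.

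The 5 genes covered a wide range of levels. In GC B cells the order from high to low was Apobec3, Apobec1, Adar, Apobec2 and Adarb1. In naive B cells Adar stood above Apobec1, and the order of the others was the same. The ranges of the 3 pools of neighbours in this order did not overlap in either population for the 3 higher genes. Apobec2 and Adarb1 were under 3 TPM in every pool, and their ranges overlapped in both populations.

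**Figure D1:**
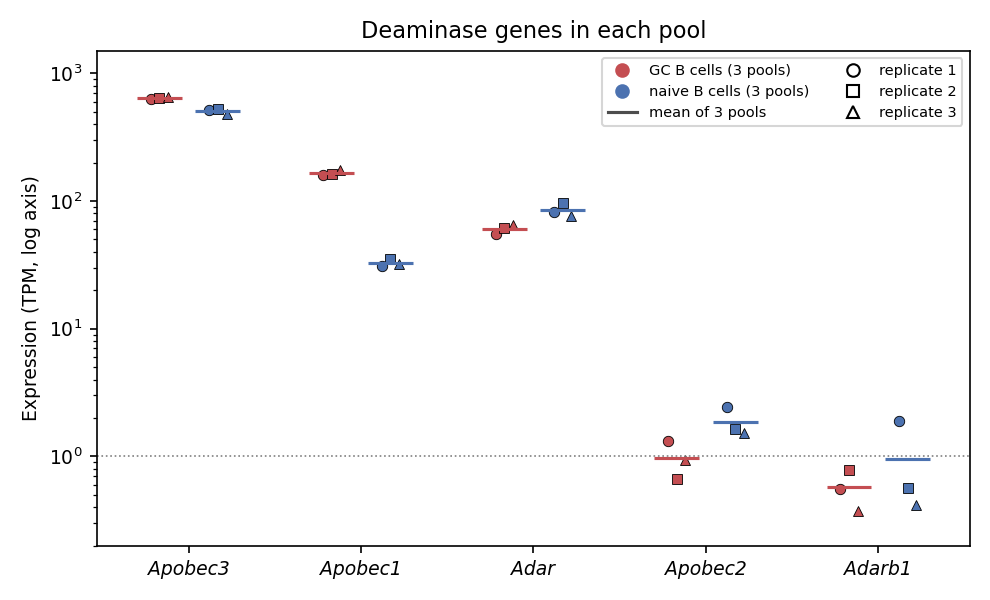
TPM of the 5 deaminase genes (logarithmic axis) in each of the 3 GC pools (red) and 3 naive pools (blue), with symbols for the replicate number, bars for the mean of 3 pools, and a dotted line at 1 TPM. Apobec1 lies between 159 and 176 TPM in GC pools and between 30.9 and 35.2 TPM in naive pools, whereas Adarb1 overlaps between the populations.

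Apobec1 (ENSMUSG00000040613), the RNA-editing cytidine deaminase of the gut, was higher in GC B cells. It lies on the minus strand of chromosome 6 from 122577792 to 122603024 (GRCm38.p6, RefSeq), and no other RefSeq gene overlaps it. Its level was 159, 163 and 176 TPM in GC replicates 1, 2 and 3 and 30.9, 35.2 and 31.99 TPM in naive replicates 1, 2 and 3. Every GC pool was far above every naive pool. The means were 166 ± 8.91 TPM (SD, n = 3) and 32.7 ± 2.24 TPM (SD, n = 3), a ratio of 5.09. The log2 fold change was 2.31 on the log2(TPM + 1) scale (SE 0.0689, 95% confidence interval 2.15 to 2.48, adjusted p = 8.46e-07 in limma). Of the genes called, 560 including Apobec1 had a log2 fold change at least this high. Apobec1 moved from above 64.99% of the tested genes in naive B cells to above 93.0% in GC B cells. In sorted cells analyzed in bulk, more cells with the message and more message per cell cannot be told apart.

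Because Apobec1 is known from the intestinal epithelium, the epithelial markers were read in the same pools. The summed level of 9 such markers was 65.6, 142 and 75.5 TPM in GC pools and 233, 195 and 192 TPM in naive pools. Of the 8 epithelial markers tested, 6 were lower and 1, Krt18, was higher in GC B cells. Of all tested genes, 30.1% were lower and 35.5% were higher. The part of epithelial RNA in the Apobec1 levels was not tested. Apob, the classical substrate of APOBEC1, had means of 1.56 ± 0.756 TPM (GC) and 1.98 ± 1.25 TPM (naive; SD, n = 3 for each) and did not pass the test (adjusted p = 0.673 in limma).

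Apobec3 (ENSMUSG00000009585), which restricts retroviruses, was the most abundant of the 5 genes and was modestly higher in GC B cells. It lies on the plus strand of chromosome 15 from 79892058 to 79918218. Its levels were 633, 639 and 657 TPM in GC replicates 1, 2 and 3 and 517, 526 and 478 TPM in naive replicates 1, 2 and 3. The lowest GC pool was above the highest naive pool, although the distance was small beside that of Apobec1. The means were 643 ± 12.6 TPM and 507 ± 25.5 TPM (SD, n = 3 for each), a ratio of 1.27, with a log2 fold change of 0.34 (SE 0.0472, 95% confidence interval 0.23 to 0.46, adjusted p = 0.000798 in limma). Apobec3 was above 98.4% of the tested genes in GC and above 98.1% in naive B cells. The RefSeq model of Apobec3 overlaps that of Cbx7, a Polycomb gene, by 2415 bases, and that of the lncRNA D730005E14Rik, for which no value was matched, by 1081 bases. Cbx7 went in the other direction, from 152 ± 18.7 TPM in naive to 74.6 ± 24.1 TPM in GC B cells (SD, n = 3 for each; log2 fold change -1.06, adjusted p = 0.00542 in limma). These overlaps are of whole gene spans, introns included, and the bases that lie in exons of both genes were not determined. Strandedness of the reads is not given in the sources used here, so reads from any such bases could go to either gene.

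Apobec2 (ENSMUSG00000040694; chromosome 17, minus strand, 48419231 to 48432728) was near the limit of detection. Its model overlaps that of the lncRNA Gm30283, for which no value was matched, by 2053 bases. The Apobec2 values were 1.32, 0.664 and 0.934 TPM in GC replicates 1, 2 and 3 and 2.42, 1.63 and 1.52 TPM in naive replicates 1, 2 and 3. The naive pools were all above the GC pools, but only 1 of the GC pools reached the 1 TPM on which the filter rests. With the depths estimated above and its single annotated transcript of 1218 bases, these levels correspond to about 10.9, 4.99 and 6.96 reads in the GC pools and 21.9, 19.9 and 12.0 reads in the naive pools. The log2 fold change was -0.53 (SE 0.193, 95% confidence interval -1.0002 to -0.07) and passed the threshold by little (adjusted p = 0.0477 in limma). Among the alternatives that lost the call, it was lost when any single pool other than GC replicate 1 was left out, with adjusted p between 0.0581 and 0.142 in limma. Of the 7 markers of muscle and stroma, 6 were under 1 TPM in every pool, and their summed level was 1.38 to 2.85 TPM in GC and 0.162 to 0.529 TPM in naive pools.

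Adar (ENSMUSG00000027951), which encodes ADAR1, was lower in GC B cells. It lies on the plus strand of chromosome 3 from 89714469 to 89753455, and its model shares 8 bases with that of Chrnb2, which lay between 1.05 and 1.903 TPM in all pools. The Adar values were 55.1, 61.1 and 65.1 TPM in GC replicates 1, 2 and 3 and 82.2, 96.8 and 76.8 TPM in naive replicates 1, 2 and 3. The highest GC pool was below the lowest naive pool, and the naive pools differed among themselves more than the GC pools did. The means were 60.4 ± 5.002 TPM and 85.3 ± 10.4 TPM (SD, n = 3 for each), so that naive B cells had 1.41 times the level of GC B cells. The log2 fold change was -0.49 (SE 0.104, 95% confidence interval -0.74 to -0.24, adjusted p = 0.00601 in limma). Of the genes called, 2877 including Adar had a log2 fold change at least this low, and the median over all genes called lower was -0.78.

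Adarb1 (ENSMUSG00000020262; chromosome 10, minus strand, 77290727 to 77418292), which encodes ADAR2, was barely detected. The pools gave 0.551, 0.789 and 0.376 TPM in GC replicates 1, 2 and 3 and 1.904, 0.561 and 0.413 TPM in naive replicates 1, 2 and 3. The populations overlapped, and only naive replicate 1 exceeded 1 TPM, so that the gene was not among those tested with limma. The difference between the means on the log2(TPM + 1) scale was -0.25 (two-sided exact permutation test over pools, p = 0.6, where 0.1 is the smallest value that 3 against 3 pools allow). Without naive replicate 1 the difference was 0.07. That pool also had the highest sums of epithelial (233 TPM), myeloid (7.07 TPM) and neuronal and glial markers (5.89 TPM). The part of such RNA in its Adarb1 value was not tested. Adar was 100, 77.5 and 173 times as abundant as Adarb1 in GC replicates 1, 2 and 3. In naive replicates 1, 2 and 3 it was 43.2, 173 and 186 times as abundant. These ratios rest on the low Adarb1 values and are therefore rough.

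**Figure D2:**
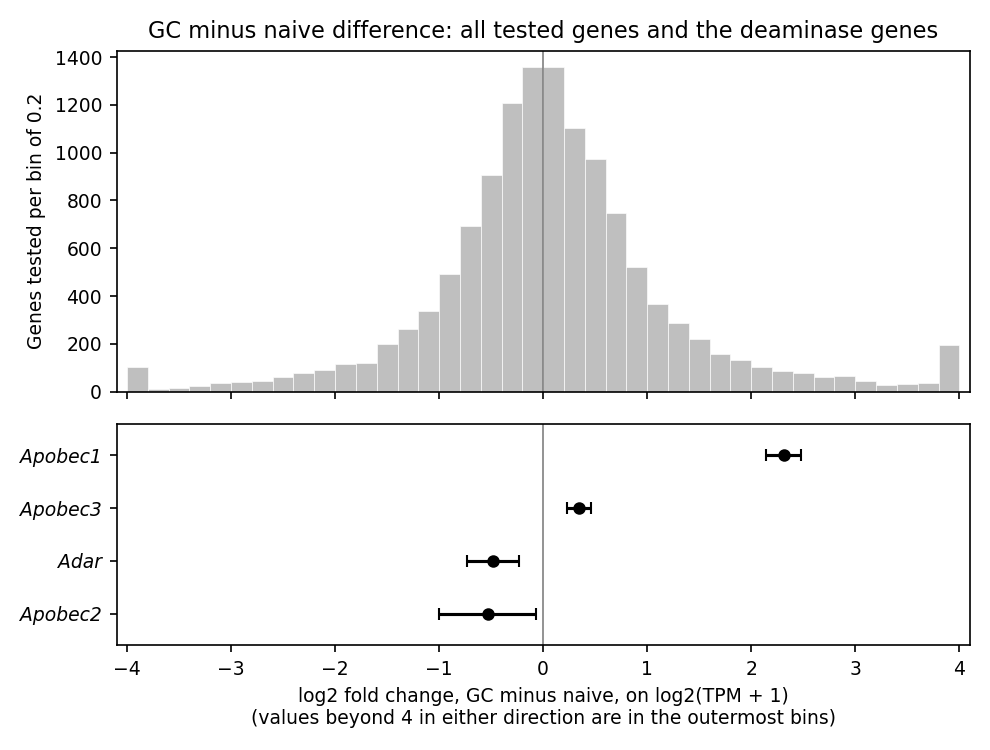
Upper panel, number of tested genes per bin of log2 fold change (GC minus naive, log2(TPM + 1) scale) over 12785 genes. Lower panel, log2 fold change (points) with 95% confidence interval (bars) of the 4 deaminase genes tested, where Apobec1 at 2.31 is in the right tail and Apobec3, Adar and Apobec2 lie between -0.53 and 0.34.

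The balance between the 3 expressed genes differed between the populations. The 5 genes summed to 850, 865 and 900.1 TPM in GC pools and to 634, 660 and 588 TPM in naive pools, higher in every GC pool. Apobec3 made up 73.0% to 74.6% of this sum in GC pools and 79.7% to 81.5% in naive pools. Apobec1 made up 18.7% to 19.6% in GC and 4.87% to 5.44% in naive pools, and Adar made up 6.49% to 7.23% and 12.96% to 14.7%. Apobec1 was 2.89, 2.67 and 2.71 times as abundant as Adar in GC replicates 1, 2 and 3, and 0.376, 0.364 and 0.417 times as abundant in naive replicates 1, 2 and 3. The order of these genes was thus opposite in the populations, in each pool.

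Adar and Apobec3 are both known to be induced by interferon, and the promoters that hold a match to an interferon response element are shown for that reason. The letters searched were GAAANNGAA, on both strands and with overlaps allowed, in windows from 250 bases before to 50 bases after each RefSeq start site (GRCm38.p6). The letters were chosen after these sequences had been seen, so that the matches are a description and no test. Of 8 windows for the 5 genes, 2 held a match, and 8.56% of all 32851 windows did. The windows of Apobec1, Apobec2 and Adarb1 held none. Each sequence is given 5′ to 3′ on the strand of the gene, with matches in capitals.
Apobec3, chr15:79892158-79892457, plus strand: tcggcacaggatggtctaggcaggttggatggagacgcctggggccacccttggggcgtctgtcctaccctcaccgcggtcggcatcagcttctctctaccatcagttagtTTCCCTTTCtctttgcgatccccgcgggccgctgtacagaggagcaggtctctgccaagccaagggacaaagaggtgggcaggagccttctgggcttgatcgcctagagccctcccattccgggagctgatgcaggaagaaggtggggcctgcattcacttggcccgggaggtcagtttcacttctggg
Adar, chr3:89730468-89730767, plus strand: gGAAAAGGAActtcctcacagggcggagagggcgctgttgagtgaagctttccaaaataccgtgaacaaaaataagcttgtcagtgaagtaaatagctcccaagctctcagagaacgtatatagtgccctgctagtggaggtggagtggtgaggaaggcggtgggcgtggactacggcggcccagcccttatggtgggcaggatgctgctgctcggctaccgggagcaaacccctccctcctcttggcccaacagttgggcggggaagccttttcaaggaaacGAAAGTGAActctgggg
The match of Apobec3 lies 139 to 131 bases before the start site and reads GAAAGGGAA on the opposite strand. Adar has 3 windows, and the one shown has matches at 249 to 241 bases before the start site (GAAAAGGAA) and at bases 34 to 42 of the transcript (GAAAGTGAA).

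Interferon-stimulated genes were read as a list of 17, of which 14 were tested. In GC B cells, 11 were lower and 3 did not pass, with a median log2 fold change of -1.12 against 0.03 over all tested genes. Of the 14, 4 were under 1 TPM in every GC pool and entered the test through naive pools alone, so that they had to be lower, and of the other 10, 7 were lower, with a median of -0.63, where 30.1% of all tested genes were lower. On the log2(TPM + 1) scale, Xaf1, which promotes apoptosis, fell by 2.39 (adjusted p = 0.00391 in limma). The antiviral genes Ifit3 (-2.06, 0.00142) and Mx1 (-1.83, 0.000517) are among the 4 that entered through naive pools, and the order of the decreases depends on the pseudocount of 1. Samhd1, a dNTP hydrolase that restricts retroviruses, had means of 289.6 ± 8.37 TPM (GC) and 286 ± 30.9 TPM (naive; SD, n = 3 for each; adjusted p = 0.821 in limma). All 17 genes summed to between 453 and 487 TPM in GC pools and between 602 and 717 TPM in naive pools. Samhd1 held much of this sum and was left out of a further sum after its value was seen. The other 16 genes summed to 167, 191 and 188 TPM in GC pools and to 350.4, 401 and 349 TPM in naive pools. Naive replicate 2 was the highest naive pool in this sum and in Adar, Apobec1 and Apobec3 alike. Among GC pools, replicate 2 was the highest in this sum, whereas replicate 3 was the highest in Adar, Apobec1 and Apobec3. The part of interferon signals in the levels of these genes was not tested.

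**Figure D3:**
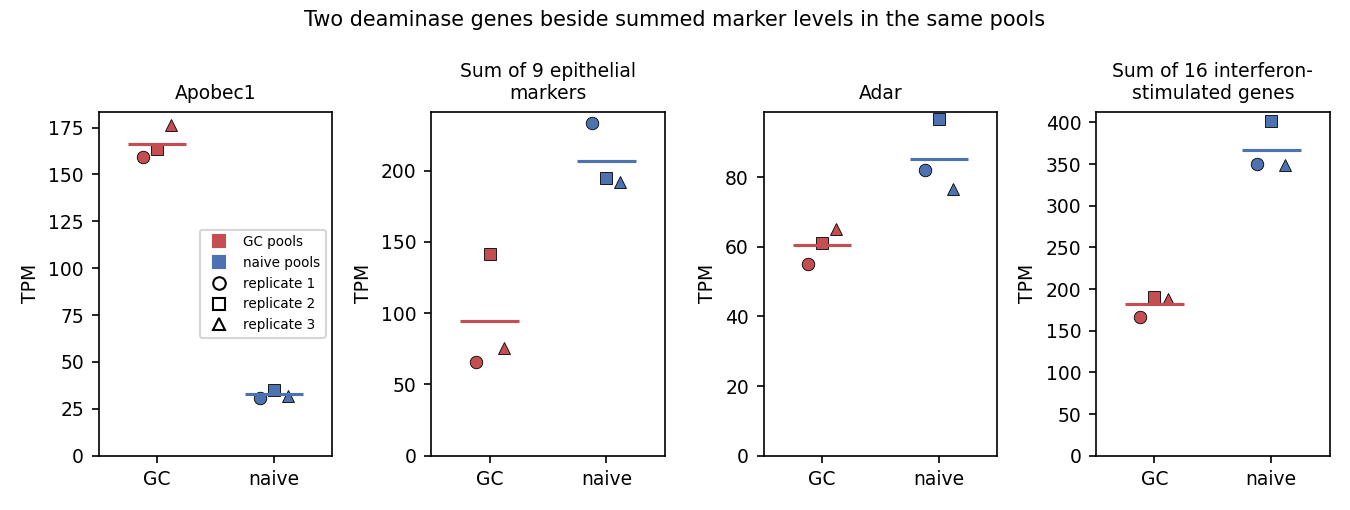
TPM of Apobec1, of 9 epithelial markers summed, of Adar, and of 16 interferon-stimulated genes summed (without Samhd1), in GC pools (red) and naive pools (blue), with symbols for the replicate number and bars for the mean of 3 pools. The epithelial sum is 65.6 to 142 TPM in GC pools and 192 to 233 TPM in naive pools, and neither sum was tested as a source of the gene levels.

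Sensors and effectors of double-stranded RNA, among them MDA5, were tested for 15 of 16 listed genes. In GC B cells 10 were lower, 1 was higher and 4 did not pass, with a median log2 fold change of -0.58. Over all tested genes, 30.1% were lower and 35.5% were higher. Of the 10, 3 entered the test through naive pools alone, Oas2 among them, and of the other 12 tested, 7 were lower, with a median of -0.46. Ddx58, which encodes the sensor RIG-I, fell from 55.8 ± 7.03 TPM in naive to 6.37 ± 1.87 TPM in GC B cells (SD, n = 3 for each; log2 fold change -2.97, adjusted p = 3.41e-05 in limma). Oas2, an oligoadenylate synthetase, fell by 2.67 on the log2 scale (adjusted p = 9.40e-05 in limma) and was under 1 TPM in every GC pool. Ifih1, which encodes MDA5, had means of 1.12 ± 0.661 TPM (GC) and 1.43 ± 0.406 TPM (naive; SD, n = 3 for each; adjusted p = 0.467 in limma). Eif2ak2, which encodes the kinase PKR, was at 12.1 ± 1.78 TPM and 11.1 ± 1.54 TPM (SD, n = 3 for each; adjusted p = 0.495). Ripk3, a kinase of necroptosis, was the gene that rose (log2 fold change 0.76, adjusted p = 4.85e-05 in limma).

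Regulators and partners of the ADAR enzymes were listed as 20 names for 19 genes, all tested. In GC B cells 13 were higher, 4 were lower and 2 did not pass, with a median log2 fold change of 0.49, where 35.5% of all tested genes were higher and 30.1% were lower. Among those that rose were Sfpq (0.90, adjusted p = 7.23e-06 in limma), a paraspeckle protein, and the RNA-binding protein gene Elavl1 (0.84, 8.32e-05). Lower in GC B cells were Prkra, a partner of PKR and Dicer that entered the test through naive pools alone (-1.83, adjusted p = 7.97e-05 in limma), Dicer1 itself (-0.98, 0.000173) and Xpo5, the exporter of miRNA precursors (-0.76, 0.000405). Sfpq and most of these genes serve in general RNA metabolism, and their change was not tested against Adar.

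Cofactors and regulators of APOBEC1 were tested for 7 of 8 genes, of which 5 were higher, 1 was lower and 1 did not pass, with a median log2 fold change of 0.47. Over all tested genes, 35.5% were higher and 30.1% were lower. Hnrnpab, which binds APOBEC1, rose from 291 ± 0.319 TPM to 793 ± 12.5 TPM (SD, n = 3 for each; log2 fold change 1.44, adjusted p = 3.22e-07 in limma). Syncrip and Khsrp, RNA-binding proteins of the editing complex, were 0.94 and 0.91 log2 units higher. The cofactors that are known to complement APOBEC1 in editing were near the limit of detection. A1cf had means of 0.194 ± 0.0602 TPM (GC) and 0.256 ± 0.166 TPM (naive; SD, n = 3 for each) and was not tested. Rbm47, which entered the test through naive pools alone, was lower in GC B cells, at 0.683 ± 0.163 TPM against 1.95 ± 0.777 TPM (SD, n = 3 for each; log2 fold change -0.78, adjusted p = 0.0212 in limma), and its call was lost when GC replicate 1, GC replicate 3, naive replicate 1 or naive replicate 2 was left out (adjusted p between 0.0588 and 0.0639 in limma).

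Transcripts known as substrates of APOBEC1 or ADAR enzymes were called in both directions. Of 16 listed, 13 were tested, 4 were higher, 5 were lower and 4 did not pass, with a median log2 fold change of -0.18. The share called was 69.2% against 65.6% over all tested genes, and this difference was not tested. With quantile normalization 12 of 13 were called, against 8543 of all 12785 tested genes. With no filter on low values 10 of 14 were called, against 8639 of 20845. Azin1, an antizyme inhibitor message edited by ADAR1, rose from 44.5 ± 2.66 TPM to 178 ± 6.83 TPM (SD, n = 3 for each; log2 fold change 1.98, adjusted p = 9.01e-07 in limma). Cyfip2, an actin regulator, rose by 1.35 on the log2 scale (adjusted p = 5.73e-06 in limma). B2m, the light chain of MHC class I, whose message APOBEC1 edits in the gut, fell from 2183 ± 127 TPM to 456 ± 9.64 TPM (SD, n = 3 for each; log2 fold change -2.26, adjusted p = 3.26e-07 in limma). Flna and Blcap, ADAR substrates, were also lower (-1.43 and -1.09). Gria2 and Htr2c, neuronal substrates of ADAR enzymes, were listed at 0 in every pool. Levels do not show whether a transcript was edited, and editing was not analysed here.

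The other deaminases of nucleic acids and nucleotides were listed as 16 genes, of which 12 were tested, 5 were higher, 2 were lower and 5 did not pass (median log2 fold change 0.04), a share called of 58.3% against 65.6% over all tested genes. Ada, the adenosine deaminase of purine salvage, rose from 5.34 ± 0.780 TPM in naive to 124 ± 5.29 TPM in GC B cells (SD, n = 3 for each; log2 fold change 4.31, adjusted p = 3.54e-07 in limma). Ampd3, an AMP deaminase that entered the test through naive pools alone, fell from 13.3 ± 3.17 TPM to 0.545 ± 0.180 TPM (SD, n = 3 for each; log2 fold change -3.20, adjusted p = 1.51e-05 in limma), while its paralog Ampd2 was higher (0.58, 0.000417). Dctd, the dCMP deaminase, and Adarb2, a relative of Adarb1 without known editing activity, were higher by 1.05 and 0.87 log2 units. The level of Adarb2 was low, at 2.16 ± 0.124 TPM (GC) and 0.738 ± 0.250 TPM (naive; SD, n = 3 for each). Adarb2 entered the test mainly through its GC pools, where it is higher, and was not tested under a filter of 5 TPM. Among the tRNA adenosine deaminases, Adat1 was lower (-0.43, adjusted p = 0.0128 in limma), Adat2 was higher (0.76, 0.002) and Adat3 did not pass (-0.01, 0.968). Cdadc1 and Adal did not pass either (log2 fold changes 0.08 and -0.35, adjusted p = 0.464 and 0.0790 in limma). Adal was called lower with a replicate block (adjusted p = 0.0375 in limma), with quantile normalization (0.0471) and without naive replicate 1 (0.0167). Apobec4, Adad1 and Adad2 were listed at 0 in every pool.

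**Figure D4:**
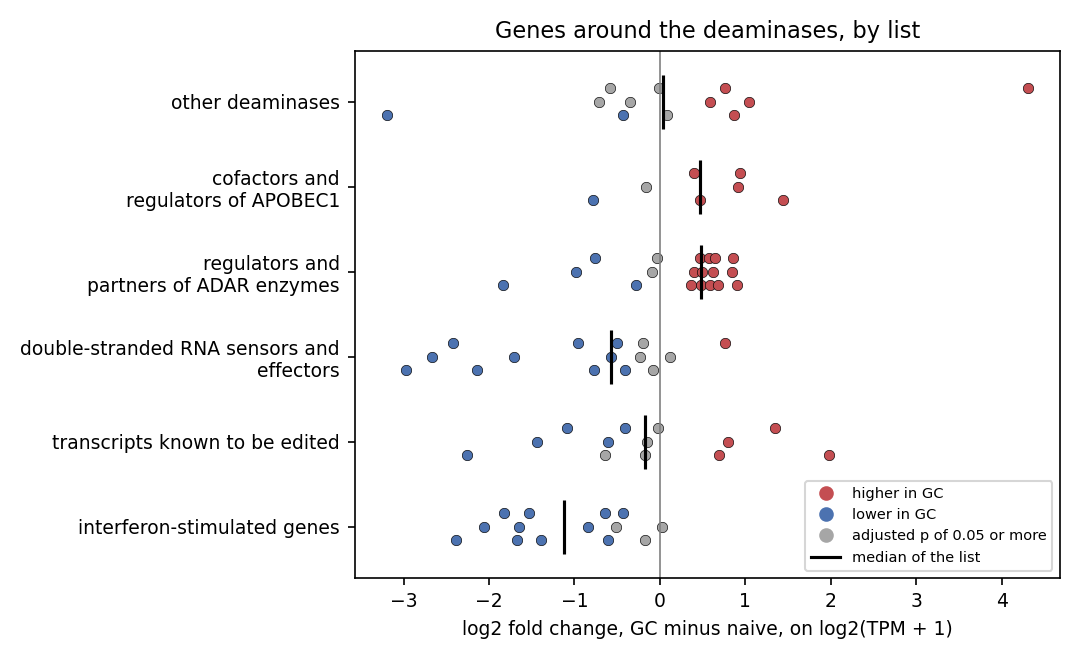
Log2 fold change (GC minus naive, log2(TPM + 1) scale) of each tested gene in 6 lists of genes related to the deaminases, with red for higher and blue for lower in GC B cells at an adjusted p under 0.05, gray for the rest, and black bars for the median of each list. The median is -1.12 for interferon-stimulated genes, or -0.63 without the 4 that entered the test through naive pools alone, and 0.49 for regulators and partners of ADAR enzymes.

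Genes with a similar pattern over the 6 pools were ranked by Pearson's r with each tested deaminase gene on the log2(TPM + 1) scale. The 6 points share libraries and fall into 2 groups, so that r largely reflects the difference between the populations. For Apobec1 the 3 highest were 4930427A07Rik, Azin1 and Polh (r of 0.9999, 0.9999 and 0.9998), and 23.6% of the tested genes had an r above 0.95. For Apobec3 they were D17H6S56E-3, Wdr6 and Bcar3 (0.9998, 0.9997 and 0.9988), with 19.5% of genes above 0.95. For Adar they were BC017643, 1600027N09Rik and Abhd13 (0.9961, 0.9943 and 0.9939), with 3.59% above 0.95. For Apobec2 they were Plekhg5, Wwp1 and C430048L16Rik (0.9863, 0.9863 and 0.9788), with 0.305% above 0.95.

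T cell markers summed to 1.65 to 3.51 TPM in GC pools and 1.72 to 2.46 TPM in naive ones, with Cd4 as the highest in GC and Cd3g in naive B cells. Myeloid markers summed to 0.836 to 2.31 TPM and 3.96 to 7.07 TPM, with Lyz2 as the highest and S100a8 and Fcgr1 listed at 0 in every pool. Neuronal and glial markers summed to 2.82 to 5.79 TPM and 4.12 to 5.89 TPM. Acta2 was the highest marker of muscle and stroma, at 1.2003 ± 0.591 TPM in GC B cells (SD, n = 3). Among endothelial markers, Pecam1, which B cells also express, had means of 23.3 ± 1.22 TPM (GC) and 126 ± 5.55 TPM (naive; SD, n = 3 for each), whereas Cdh5 was at most 1.05 TPM in every pool and Kdr was listed at 0. The highest epithelial marker was Fabp2, with 36.8 ± 24.9 TPM (GC) and 73.0 ± 7.34 TPM (naive; SD, n = 3 for each). Of the plasma cell markers, Jchain was the highest in GC B cells but not in naive B cells, with 669 ± 20.3 TPM (GC) and 33.3 ± 9.77 TPM (naive; SD, n = 3 for each). Plasma cell markers summed to between 766 and 801 TPM in GC pools and between 139.97 and 173 TPM in naive pools. Of the 4, Jchain and Prdm1 were higher in GC B cells, and Sdc1 and Xbp1 were lower (log2 fold changes -0.75 and -0.20). Of all tested genes, 35.5% were higher and 30.1% were lower. The part of plasma cell RNA in the deaminase values was not tested.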

How the data were processed

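RNA-Seq was analyzed in 3 pools of GC and 3 pools of naive B cells. Per the labels and the study's methods, the authors used CASAVA 1.8, FastQC and cutadapt 1.9, quantified expression with RSEM 1.2.25 on mouse transcripts (NCBIm38 v75) at a mean fragment length of 180, and deposited FPKM per gene and pool. edgeR is named in the submitters' processing notes with no role. FPKM was rescaled to TPM per pool. Symbols came from the gene name table (33398 of 39179 identifiers) and RefSeq synonyms, and positions and promoters from RefSeq GRCm38.p6, which is the same assembly as the authors' build.

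The populations were compared by limma (version 3.58.1, R 4.3.3, eBayes with trend) on log2(TPM + 1), a pseudocount of 1 that understates changes of low genes, over genes reaching 1 TPM in 3 or more pools, with Benjamini-Hochberg adjustment over all 12785. The fit was tested on simulated data. Depth was estimated from the FPKM spacing of single-transcript genes of 250 to 900 bases. Transcript lengths for the depths and read numbers came from a GENCODE annotation, not from RefSeq. Between 67.9% and 74.3% of low values lay within 0.15 of a whole read, so no count test was used. Python 3.11.15 (pandas 2.3.3, scipy 1.17.1, numpy 2.4.6) served for the other steps, and matplotlib 3.10.9 for figures.

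The 5 genes, the lists and the tests were chosen with earlier results of these data known. Named genes are the 5 members, the 3 largest increases and 3 largest decreases among called genes of each list, other deaminases with a mean of at least 10 TPM, the 3 genes with the highest r for each member, and the highest marker of each other cell type. Genes named outside this rule, such as Ifih1, A1cf, Apob, Samhd1, Eif2ak2, Gria2, Adat2, Cbx7, Krt18, Cdh5, Cd3g, Prdm1, Sdc1 and Xbp1, were chosen after their values were seen. Alternatives covered the pseudocount, the filter, the scaling, the variance model, a replicate block and each pool left out. The gene of AID was not analysed here, and some genes that the naming rule gives are not reported here.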

Additional observations from a re-analysis of the deposited data

How the results depend on the processing

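The directions and calls of Apobec1, Apobec3 and Adar held in all 15 alternatives, with log2 fold changes between 2.21 and 2.37, 0.25 and 0.37, and -0.62 and -0.39. The call of Apobec2 was lost with a pseudocount of 0.1 (log2 fold change -0.88) or 0.01 (-0.95), with no filter on low values (-0.53) and with a filter of 5 TPM, under which it is not tested (-0.53). With 1 pool left out its log2 fold change lay between -0.66 and -0.40. The Adarb1 difference was 0.074 without naive replicate 1, against -0.25 with all pools, and lay between -0.45 and 0.07 over all pools left out in turn. The genes called over the whole table numbered between 7180 and 8639 (8392 in the main comparison), and 7656 to 8101 with 1 pool left out. The balance of higher and lower calls moved from 4540 and 3852 to 4088 and 4455 with quantile normalization, and to 4189 and 4126 on FPKM as deposited. Interferon-stimulated genes called fell from 11 to 6 under the filter of 5 TPM, where 9 of the list were tested, and the totals called of the other 5 lists stayed within 1.5 times. Counts in 1 direction moved more. Other deaminases called lower numbered 2 and became 4 with quantile normalization or without GC replicate 2. Edited transcripts called lower went from 5 to 8 with quantile normalization, and the 1 APOBEC1 cofactor called lower, Rbm47, was lost in 6 alternatives. Alternatives for the lists and their genes were chosen after seeing the data. Of 465 results for 31 named list genes, 452 held, 10 lost and 3 gained the call, and none turned in direction.

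The labels number the pools 1 to 3 in each population. Deviations from the group means of pools with the same number had correlations of 0.0830, 0.0225 and 0.0456 over genes. For pools with different numbers the correlations lay between -0.0746 and 0.0298. These values are small and cannot decide whether pools were paired. The labels and the study's methods name no pairs, so the main comparison did not read the numbers as pairs. With a replicate block, 7960 genes were called, the log2 fold changes stayed the same, and adjusted p in limma was 5.93e-05 for Apobec1, 0.00674 for Apobec3, 0.0130 for Adar and 0.0370 for Apobec2. The lowest Apobec2 level rests on about 4.99 reads, and the reads behind Adarb1 are uncertain because its transcripts differ in length.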
